A study of Mus musculus with 60 samples.

Results

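Ankrd9, Klhl2, Lonrf1 and Fam120b are 4 genes whose daily rhythm in the mouse colon was placed in the class "change" when naïve mice were compared with mice that have collagen-induced arthritis (CIA). They were 4 of the 27179 genes counted and 4 of the 42 genes in that class, where they held ranks 2 to 5 by weight. The class holds genes that were rhythmic in both treatments with a different amplitude or peak time, and it was called from a model selection on the same 60 libraries. The 4 genes were therefore chosen by their fitted peak times and amplitudes, and peak times, amplitudes and differences at single times are given here as a description, with no test. The mean level over the day played no part in that choice and was tested. The shape of the wave beyond a single 24 h cosine was also tested, but it was not fully apart from the choice. A difference in shape is left unexplained by all the fitted models and tends to lower the weight for "change".

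RNA was sequenced from a 5 mm piece of mid-colon of 60 male DBA/1 mice, which came from 12 groups of 5, 1 library per mouse. The CIA mice received bovine type II collagen in Complete Freund's adjuvant (1 mg/ml) at 9 to 10 weeks of age, were boosted with collagen on day 21, both at ZT6, and were sampled 7 days after symptoms appeared. Naïve mice shared their cages, and both treatments were sampled at ZT0, ZT4, ZT8, ZT12, ZT16 and ZT20, where ZT0 is lights on and ZT12 lights off. Adjuvant, collagen and arthritis came together in the CIA mice and cannot be told apart.

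All 4 genes encode regulatory proteins, and 3 of them belong to families that act in ubiquitin transfer. In cullin-RING ubiquitin ligases a cullin scaffold holds a RING protein at one end and an exchangeable substrate receptor at the other, so that the receptor decides which protein is marked. ANKRD9 is an ankyrin-repeat substrate receptor known for binding IMPDH2, an enzyme of guanine nucleotide synthesis. KLHL2 is a BTB-kelch receptor of cullin 3 known for binding actin and WNK kinases, which set ion transport in epithelia. LONRF1 carries a RING finger and a LON-type domain, and FAM120B is known as a coactivator of PPARγ, the nuclear receptor of fat cell differentiation. In the colon, as in other tissues, a transcriptional clock of activators (ARNTL and its partner) and repressors (PER, CRY, NR1D1) drives daily rhythms of gene expression, and the nocturnal mouse feeds mainly in the dark.

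The start regions of the genes are shown as a description. The 4 genes were chosen for a changed rhythm, and whether they share a control was not tested. Promoter windows reaching from 250 bases before to 50 bases after an annotated transcription start were taken from RefSeq (GRCm38.p6) and are written 5′ to 3′ on the strand of the gene. Capitals mark 7 motifs searched on both strands: the E-box CACGTG, its variant CACGTT, the D-box TTANGTAA, the ROR element core TAGGTCA, the cAMP element TGACGTCA, the shorter core TGACG that lies within it, and the CCAAT box. Ankrd9 and Fam120b each have 2 annotated starts, and of the overlapping windows of Fam120b the first is printed.
Ankrd9, first window, chr12:110978991-110979290, minus strand: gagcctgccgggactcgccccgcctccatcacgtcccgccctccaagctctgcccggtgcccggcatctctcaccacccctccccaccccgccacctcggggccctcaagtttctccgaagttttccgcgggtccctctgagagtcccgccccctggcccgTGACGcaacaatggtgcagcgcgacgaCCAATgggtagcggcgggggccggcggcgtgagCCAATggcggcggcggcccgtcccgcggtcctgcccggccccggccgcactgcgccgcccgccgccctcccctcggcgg
Ankrd9, second window, chr12:110978569-110978868, minus strand: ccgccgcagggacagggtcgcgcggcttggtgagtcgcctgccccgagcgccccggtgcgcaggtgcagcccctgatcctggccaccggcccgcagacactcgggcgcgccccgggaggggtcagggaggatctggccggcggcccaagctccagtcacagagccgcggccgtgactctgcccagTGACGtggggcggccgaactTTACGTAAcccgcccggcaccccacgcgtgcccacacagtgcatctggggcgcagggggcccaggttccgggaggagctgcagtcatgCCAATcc
Klhl2, chr8:64849875-64850174, minus strand: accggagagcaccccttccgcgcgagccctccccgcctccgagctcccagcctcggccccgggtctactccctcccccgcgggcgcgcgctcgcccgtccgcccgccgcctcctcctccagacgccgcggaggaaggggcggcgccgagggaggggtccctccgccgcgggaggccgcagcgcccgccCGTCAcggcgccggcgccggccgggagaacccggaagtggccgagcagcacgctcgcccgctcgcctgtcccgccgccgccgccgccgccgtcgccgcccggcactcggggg
Fam120b, chr17:15395952-15396251, plus strand: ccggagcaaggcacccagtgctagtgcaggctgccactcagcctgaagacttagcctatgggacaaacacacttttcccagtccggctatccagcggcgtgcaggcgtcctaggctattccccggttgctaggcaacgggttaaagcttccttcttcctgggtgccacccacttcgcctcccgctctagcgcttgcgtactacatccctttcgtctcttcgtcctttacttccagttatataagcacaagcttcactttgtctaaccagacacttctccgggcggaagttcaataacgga

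The second Ankrd9 window held a D-box, TTACGTAA, which begins 45 bases before the start, and a TGACG core 65 bases before it. A D-box was found in 2.32% of the 32851 windows of this length. TGACG, present in 20.8% of windows, was the only one of the 7 motifs found in the Klhl2 window, where it lies on the opposite strand as CGTCA. Its first base is also the last base of a GC box (GGGCGG, 35.7% of windows, not capitalised). None of the 7 was found in either Fam120b window. No window of these 3 genes held CACGTG (7.15% of windows) or TAGGTCA (2.61%). Klhl2 and Ankrd9 started in regions rich in G and C (82.7% for Klhl2, 75.7% and 73.3% for Ankrd9), above the median of 52.7%, and Fam120b was near that median at 54.7% in the window printed. A match is a string of letters in a window and says nothing of binding in these samples.

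On mm10 the 4 genes lie apart from each other. Ankrd9 (Entrez 74251) spans chr12:110976420-110979082 on the minus strand, and Klhl2 (77113) spans chr8:64739673-64850169 on the minus strand. Lonrf1 (244421), also on the minus strand of chromosome 8, spans chr8:36216062-36249359, and Fam120b (67544) spans chr17:15396202-15433581 on the plus strand. RefSeq places a long non-coding RNA gene over Klhl2 (Gm46040) and over Fam120b (Gm49668) and 2 over Lonrf1 (Gm39165 and Gm35712). None of these is in the count table, and the strand setting of the counting is not given in the sources used here, so reads of such partners cannot be told apart from those of the 3 genes.

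Total counts per library lay between 25840240 and 61425974, and the 4 genes had between 223 and 4115 counts in a library, so none was near the filter on low counts and all 4 were among the 18057 genes tested. Levels are CPM, counts relative to the library total after TMM scaling, given as mean ± SD. Per kilobase of exon, Ankrd9 had the highest level of the 4 in naïve mice (10.2 CPM per kb), followed by Fam120b (7.27), Klhl2 (4.89) and Lonrf1 (3.00). These values are approximate, since exon lengths came from GENCODE and may differ from the gene models counted. For Ankrd9 the GENCODE exons cover 3160 bases and the RefSeq gene spans 2663. Of the marker lists used to check the tissue, no gene was at 0 in all libraries, and the 9 colon epithelium markers summed to between 12038.79 and 46841.17 CPM per library. Smooth muscle markers moved with treatment: 13 of 13 smooth muscle markers were higher in CIA, and their mean log2 CPM was 10.5 ± 0.410 in CIA and 9.79 ± 0.459 in naïve mice (n = 30 each). In tissue pieces of this kind fewer cells of a type and less RNA per cell cannot be told apart. A total of 6 libraries stood apart from the other 4 of their group by Arntl, skeletal muscle or interferon genes. In them, 14 of 24 values of the 4 genes lay inside the range of the other 4 mice, while naïve ZT12 replicate 3 lay outside it for all 4 genes.

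**Figure D1:**
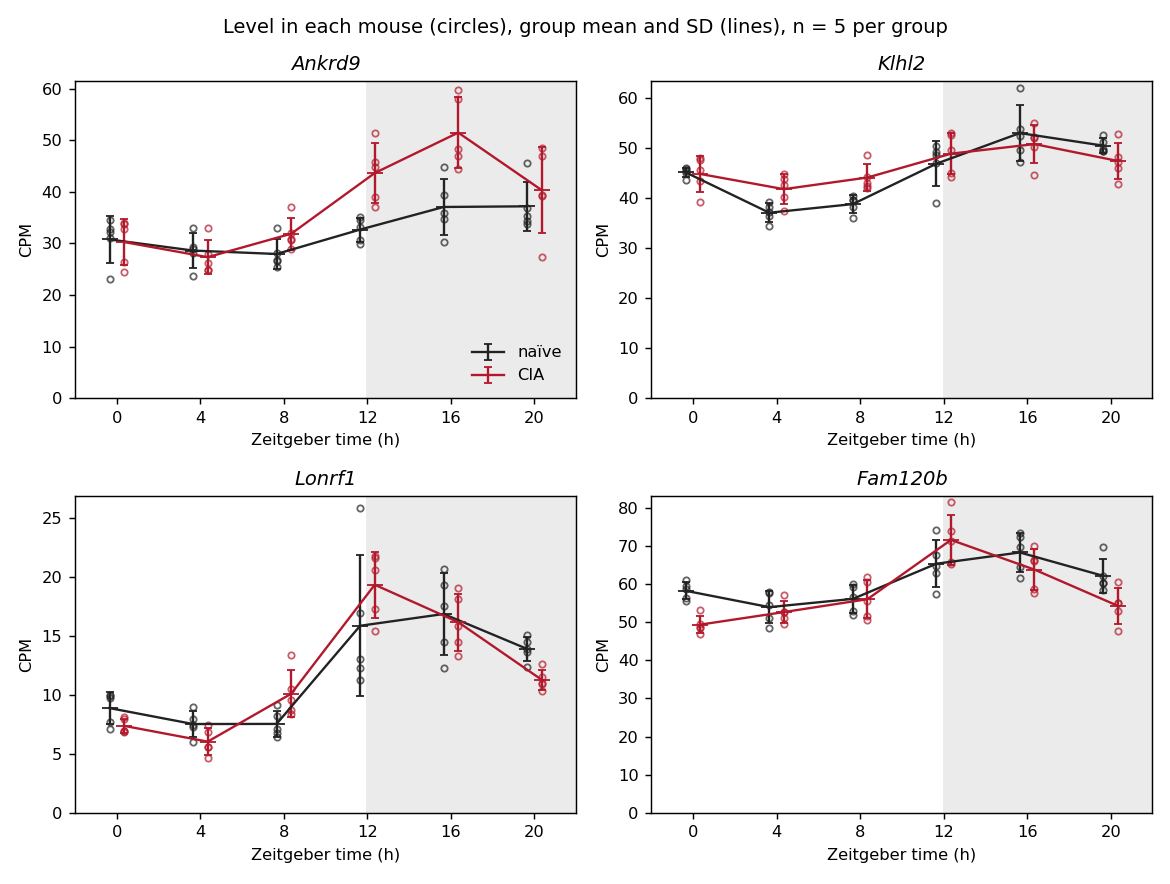
Level of each of the 4 genes (CPM, vertical axis from 0) against zeitgeber time (h), with a circle for each mouse, lines through group means and bars of 1 SD (n = 5 per group, naïve in black, CIA in red, dark phase shaded). CIA means of Lonrf1 and Fam120b are highest at ZT12 and naïve means at ZT16, Ankrd9 rises higher in CIA, and Klhl2 has the flatter curve in CIA.

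Ankrd9 had a larger daily swing in CIA, with most of the difference around the start of the night. In the light phase the mice of both treatments overlapped. At ZT0 the naïve mice had 34.5, 31.1, 32.9, 32.3 and 23.1 CPM (30.8 ± 4.47) and the CIA mice 24.4, 32.7, 26.4, 33.8 and 33.997 CPM (30.3 ± 4.50). At ZT4 Ankrd9 was at 29.4, 28.1, 33.01, 28.9 and 23.7 CPM in naïve mice (28.6 ± 3.31) and at 24.9, 24.9, 32.9, 26.1 and 27.9 CPM in CIA mice (27.3 ± 3.37). Values at ZT8 were 25.5, 28.1, 26.5, 32.9 and 26.7 CPM in naïve mice (27.96 ± 2.94) and 36.99, 28.8, 30.7, 32.1 and 30.8 CPM in CIA mice (31.9 ± 3.08). The mean was higher in CIA at ZT8 and lower at ZT0 and ZT4, and the night began with a separation of the treatments. Naïve mice at ZT12 had 29.9, 30.6, 35.2, 33.3 and 34.5 CPM (32.7 ± 2.33) and CIA mice 51.5, 39.1, 45.8, 37.04 and 44.9 CPM (43.7 ± 5.76). Every CIA mouse lay above every naïve mouse at that time, as was the case for 2.88% of all genes tested. By ZT16 the levels were 39.5, 35.9, 34.8, 30.4 and 44.8 CPM in naïve mice (37.1 ± 5.40) and 47.02, 48.3, 44.5, 59.7 and 58.1 CPM in CIA mice (51.5 ± 6.89), where 1 naïve mouse, at 44.8 CPM, lay above the lowest CIA mouse. At ZT20 naïve mice were at 33.8, 36.96, 34.3, 35.4 and 45.5 CPM (37.2 ± 4.80) and CIA mice at 48.5, 39.5, 39.3, 27.4 and 47.02 CPM (40.3 ± 8.40), with CIA values both above and below the naïve range. On the log2 CPM scale the difference, CIA minus naïve, was 0.41 (SE 0.10) at ZT12 and 0.48 (SE 0.13) at ZT16. Ordered by level, the first 3 of the 12 groups were the CIA groups at ZT16, ZT12 and ZT20. Only the step from the first to the second exceeded the larger SD of the neighbouring groups, and the other 10 of 11 steps did not.

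The daily range of Ankrd9 was 1.33-fold in naïve mice, from a lowest mean at ZT8 to a highest at ZT20, and 1.88-fold in CIA mice, from ZT4 to ZT16. In the fitted cosine the amplitude, from mean to peak, was 0.23 log2 CPM in naïve and 0.45 in CIA mice, a difference of 0.22 (SE 0.07). Its fitted peak was at ZT17.6 (SE 0.821 h) in naïve and at ZT15.5 (SE 0.413 h) in CIA mice, -2.09 h (SE 0.919).

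Klhl2 went the other way in size, with the smaller swing in CIA. Its trough was shallower: the CIA means were higher at ZT4 and ZT8 and lower at ZT16 and ZT20. At ZT0 Klhl2 was at 45.3, 43.7, 45.9, 45.7 and 44.9 CPM in naïve mice (45.1 ± 0.900) and at 45.7, 43.4, 47.6, 39.2 and 48.1 CPM in CIA mice (44.8 ± 3.63). The ZT4 values were 39.2, 38.2, 36.4, 37.1 and 34.3 CPM in naïve mice (37.1 ± 1.85) and 42.5, 37.4, 40.3, 43.9 and 44.9 CPM in CIA mice (41.8 ± 3.01), and 4 of 5 CIA mice lay above the highest naïve mouse. At ZT8 the naïve mice had 39.7, 35.9, 39.7, 40.4 and 38.3 CPM (38.8 ± 1.76) and the CIA mice 42.1, 48.7, 43.1, 42.4 and 44.2 CPM (44.1 ± 2.70). All 5 CIA mice then lay above all 5 naïve mice, which held for 0.327% of all genes tested. In the dark phase the groups overlapped throughout. At ZT12 the level was 48.6, 49.2, 39.1, 50.5 and 46.9 CPM in naïve mice (46.9 ± 4.52) and 49.6, 44.2, 52.6, 44.98 and 53.01 CPM in CIA mice (48.9 ± 4.15). Naïve mice at ZT16 had 52.3, 49.6, 53.8, 62.01 and 47.1 CPM (52.99 ± 5.66) and CIA mice 44.6, 50.3, 52.01, 54.98 and 52.1 CPM (50.8 ± 3.87). At ZT20 naïve mice had 52.7, 49.8, 49.3, 51.2 and 49.3 CPM (50.5 ± 1.44) and CIA mice 52.8, 45.9, 47.2, 42.9 and 48.3 CPM (47.4 ± 3.61), and 4 of 5 CIA mice lay below the lowest naïve mouse. The log2 CPM difference, CIA minus naïve, was 0.17 (SE 0.06) at ZT4, 0.18 (SE 0.05) at ZT8 and -0.09 (SE 0.05) at ZT20. Among the 12 groups in order of level, from naïve ZT16 down to naïve ZT4, 0 of 11 steps exceeded the larger SD of the neighbouring groups.

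Between the lowest mean at ZT4 and the highest at ZT16, Klhl2 ranged 1.43-fold in naïve and 1.22-fold in CIA mice. The fitted amplitude was 0.26 log2 CPM in naïve and 0.13 in CIA mice, a difference of -0.13 (SE 0.04). The fitted peak lay at ZT17.4 (SE 0.383 h) in naïve and ZT15.8 (SE 0.755 h) in CIA mice, -1.62 h (SE 0.847). Its shift was the smallest of the 4 with this single cosine, but not with a 12 h term in the curve (-2.05 h). The highest mean was at ZT16 in both treatments.

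Lonrf1 had the largest rhythm of the 4, and in CIA both its rise and its fall came earlier. At ZT0 naïve mice were at 7.11, 9.90, 9.72, 10.01 and 7.71 CPM (8.89 ± 1.37) and CIA mice at 6.87, 6.95, 6.96, 7.99 and 8.12 CPM (7.38 ± 0.620). The trough at ZT4 held 8.97, 7.25, 6.05, 7.45 and 7.97 CPM in naïve mice (7.54 ± 1.07) and 5.60, 4.67, 5.59, 6.88 and 7.48 CPM in CIA mice (6.04 ± 1.12), with 3 of 5 CIA mice below the lowest naïve mouse. By ZT8 the order had turned, before the lights went off. Levels at ZT8 were 6.46, 6.82, 7.10, 8.23 and 9.13 CPM in naïve mice (7.55 ± 1.11) and 8.40, 8.69, 9.56, 10.5 and 13.4 CPM in CIA mice (10.1 ± 2.01), with 3 of 5 CIA mice above the highest naïve mouse. At ZT12 naïve mice had 25.9, 16.9, 11.3, 13.04 and 12.3 CPM (15.9 ± 5.98) and CIA mice 17.3, 21.8, 15.5, 20.6 and 21.6 CPM (19.4 ± 2.82). The naïve mice were widely spread at that time, and 1 of them, at 25.9 CPM, lay above every CIA mouse. At ZT16 the values were 19.4, 12.3, 17.6, 20.7 and 14.5 CPM in naïve mice (16.9 ± 3.49) and 14.5, 19.1, 13.3, 15.9 and 18.1 CPM in CIA mice (16.2 ± 2.41). Late in the night, at ZT20, naïve mice had 15.1, 12.4, 13.7, 14.5 and 13.9 CPM (13.9 ± 1.01) and CIA mice 11.5, 10.4, 12.6, 11.01 and 10.96 CPM (11.3 ± 0.837), and 4 of 5 CIA mice lay below the lowest naïve mouse. The groups overlapped at all 6 times. On the log2 CPM scale, CIA minus naïve, the difference was -0.32 (SE 0.15) at ZT4, 0.41 (SE 0.15) at ZT8 and -0.30 (SE 0.07) at ZT20. In the order of the 12 group means, led by CIA ZT12 and closed by CIA ZT4, 2 of 11 steps exceeded the larger SD: from naïve ZT20 to CIA ZT20, and from CIA ZT0 to CIA ZT4.

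From its lowest mean at ZT4, Lonrf1 was 2.24-fold higher at ZT16 in naïve mice and 3.20-fold higher at ZT12 in CIA mice. Its fitted amplitude was 0.66 log2 CPM in naïve and 0.81 in CIA mice, a difference of 0.15 (SE 0.10). The peak was fitted at ZT16.2 (SE 0.395 h) in naïve and at ZT14.3 (SE 0.322 h) in CIA mice, -1.87 h (SE 0.510). Without the naïve ZT12 mouse at 25.9 CPM the peak difference was -2.24 h.

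Fam120b had the earliest fitted peak of the 4 and, with the single cosine, the largest shift. Its CIA mean was furthest below the naïve mean at ZT0 and ZT20. At ZT0 it was at 55.4, 60.96, 58.7, 59.5 and 56.4 CPM in naïve mice (58.2 ± 2.27) and at 48.5, 48.6, 53.1, 49.6 and 46.9 CPM in CIA mice (49.3 ± 2.30). Every CIA mouse was below every naïve mouse there, as was found for 1.14% of all genes tested. In the rest of the light phase the means of both treatments lay close together. At ZT4 naïve mice had 50.99, 54.6, 48.4, 57.9 and 57.7 CPM (53.9 ± 4.18) and CIA mice 49.6, 57.1, 52.7, 52.6 and 51.1 CPM (52.6 ± 2.82). Fam120b at ZT8 was at 56.5, 51.8, 52.8, 59.3 and 60.02 CPM in naïve mice (56.1 ± 3.71) and 51.7, 50.7, 61.7, 60.5 and 55.4 CPM in CIA mice (55.997 ± 5.01). The groups overlapped at both times, and at each later time. At ZT12 the naïve mice had 64.6, 67.5, 57.4, 74.2 and 62.7 CPM (65.3 ± 6.19) and the CIA mice 73.9, 65.9, 65.3, 71.2 and 81.4 CPM (71.5 ± 6.60). At ZT16 it was at 64.5, 69.6, 73.3, 61.5 and 72.3 CPM in naïve mice (68.2 ± 5.08) and 57.7, 66.2, 58.8, 66.1 and 69.96 CPM in CIA mice (63.8 ± 5.28). At ZT20 levels were 58.3, 62.1, 60.3, 60.2 and 69.6 CPM in naïve mice (62.1 ± 4.39) and 52.8, 55.1, 55.1, 47.6 and 60.5 CPM in CIA mice (54.2 ± 4.66), with 4 of 5 CIA mice below the lowest naïve mouse. The log2 CPM difference, CIA minus naïve, was -0.24 (SE 0.04) at ZT0, 0.13 (SE 0.08) at ZT12 and -0.20 (SE 0.07) at ZT20. From CIA ZT12, the highest of the 12 group means, down to CIA ZT0, the lowest, 1 of 11 steps exceeded the larger SD, the last one, from CIA ZT4 to CIA ZT0.

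The range of Fam120b was 1.27-fold in naïve mice, with the lowest mean at ZT4 and the highest at ZT16, and 1.45-fold in CIA mice, with the lowest at ZT0 and the highest at ZT12. Its amplitude was 0.16 log2 CPM in naïve and 0.24 in CIA mice, a difference of 0.08 (SE 0.04). The fitted peak was at ZT15.9 (SE 0.670 h) in naïve and at ZT13.1 (SE 0.461 h) in CIA mice, -2.84 h (SE 0.813). With a 12 h term in the curve the order of the shifts turned: Fam120b then had the smallest, -1.50 h, against -2.05 h for Ankrd9 and Klhl2 and -2.15 h for Lonrf1.

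**Figure D2:**
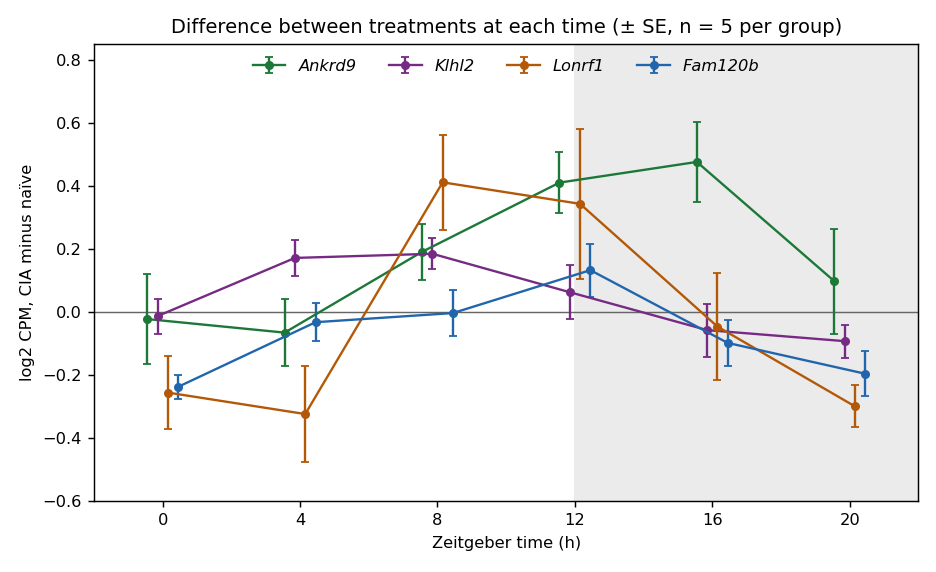
Difference in mean log2 CPM, CIA minus naïve (vertical axis), against zeitgeber time (h) for the 4 genes, with bars of 1 SE (n = 5 per group, points set side by side, dark phase shaded). Ankrd9 is highest at ZT16, Klhl2 at ZT8, Lonrf1 goes from -0.32 at ZT4 to 0.41 at ZT8 and back to -0.30 at ZT20, and Fam120b is lowest at ZT0.

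**Figure D3:**
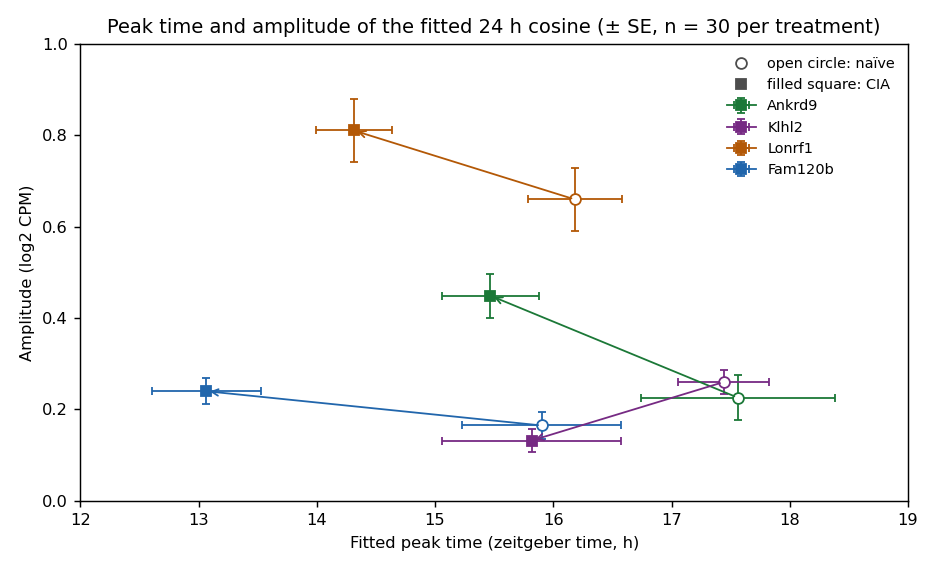
Amplitude of the fitted 24 h cosine (log2 CPM) against its peak time (zeitgeber time, h) for each gene, open circles for naïve and filled squares for CIA mice, with bars of 1 SE (30 mice per treatment) and arrows from naïve to CIA. All 4 arrows point to an earlier time, 3 of them upward, and that of Klhl2 downward.

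In 21 of the 24 pairs of groups (4 genes at 6 times) the mice of the 2 treatments overlapped, and the 3 separated pairs belonged to Ankrd9, Klhl2 and Fam120b. The single-time differences were part of the pattern that chose the genes, so nothing is read from these counts against the shares of all genes. The 4 genes shared a dark-phase peak in both treatments, ZT15.9 to ZT17.6 in naïve and ZT13.1 to ZT15.8 in CIA mice, with shifts of 97.4 to 170 minutes. Their weights for the class "change" were 0.980 for Ankrd9 and Klhl2, 0.975 for Lonrf1 and 0.974 for Fam120b. With a 12 h term in the models, Ankrd9 (0.518) and Klhl2 (0.563) came to lie under the threshold of 0.6.

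Over the day as a whole, Ankrd9 was the only one of the 4 genes whose mean level passed the test between treatments. Its level was 32.4 ± 5.24 CPM in naïve and 37.5 ± 10.02 CPM in CIA mice (n = 30 each), which gave a log2 fold change of 0.21 (SE 0.08, edgeR quasi-likelihood test, adjusted p = 0.0309), with the CIA mean higher at 4 of 6 times. The call was lost without CIA ZT16 replicate 4 (0.18, edgeR adjusted p = 0.0572), without both libraries that stood apart by skeletal muscle genes (0.20, edgeR adjusted p = 0.0515), and with limma in place of edgeR (0.18, adjusted p = 0.0654). With the smooth muscle score in the edgeR model the estimate was 0.27 (adjusted p = 0.0917). The main test leaves the daily swing in the error, and with time of day as a factor Ankrd9 kept its call (0.18, edgeR adjusted p = 0.00529). Across all genes tested, 17.6% were called higher in CIA and 20.4% lower.

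The other 3 genes did not pass the test. Klhl2 was at 45.2 ± 6.54 CPM in naïve and 46.3 ± 4.46 CPM in CIA mice (log2 fold change 0.03, SE 0.05, edgeR adjusted p = 0.582). For Lonrf1 the levels were 11.8 ± 4.81 CPM in naïve and 11.7 ± 5.06 CPM in CIA mice (log2 fold change -0.0046, SE 0.15, edgeR adjusted p = 0.984). Fam120b had 60.6 ± 6.56 CPM in naïve and 57.9 ± 8.75 CPM in CIA mice (log2 fold change -0.07, SE 0.05, edgeR adjusted p = 0.278), and its CIA mean was higher at 1 of 6 times. After the smooth muscle score was added to the model these estimates were 0.10, 0.13 and 0.02, none of which passed. With time of day as a factor the edgeR adjusted p was 0.254 for Klhl2, 0.689 for Lonrf1 and 0.0585 for Fam120b, which came near the threshold.

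The second test asked whether the treatments differed in the shape of the wave, as far as 6 times can show it apart from the 24 h cosine. Genes with high weights for "change" tend to have little such difference, so the outcome for the 4 genes may in part follow from their choice. For each of the 4 genes the adjusted p was 1.00 (edgeR quasi-likelihood test on 3 terms). No gene in the table was called, with edgeR or with limma, and 710 genes had an unadjusted p under 0.05 with edgeR. That is less than a share of 0.05 of the 18057 genes tested, the share to be met if no gene differed.

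How common shifts of this size were can be read from the genes that kept a rhythm in both treatments. Among 6674 such genes the median peak difference was 0.38 h later in CIA (quartiles -0.72 and 1.398 h), and 40.9% peaked earlier in CIA. For the 690 genes with a naïve peak between ZT14 and ZT18 and a naïve amplitude of at least 0.15 log2 CPM, the median was 0.13 h, and 45.9% peaked earlier. In that set 21 genes had a difference as early as that of Fam120b or earlier (3.04%), 54 as early as Ankrd9 (7.83%), 69 as early as Lonrf1 (10.0%) and 96 as early as Klhl2 (13.9%). The 4 genes were chosen for such differences, so these shares place them and test nothing.

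**Figure D4:**
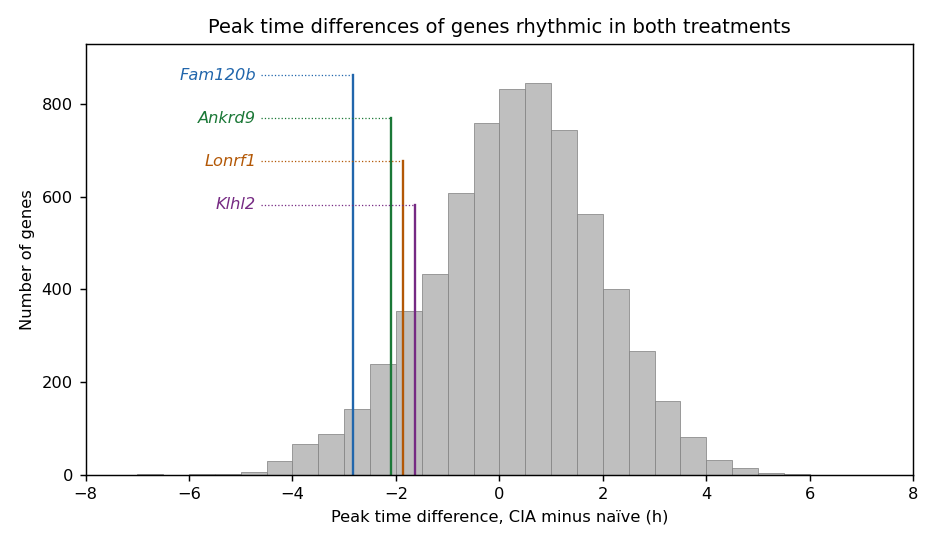
Number of genes (vertical axis) by peak time difference, CIA minus naïve (h), for the 6674 genes rhythmic in both treatments, with coloured lines at the values of the 4 genes. The bulk of genes lies around the median of 0.38 h, and the 4 lines stand between -2.84 and -1.62 h on the early side.

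The class "change" as a whole held 42 genes, 0.233% of those tested, and 30 of the 42 peaked earlier in CIA. Of the 28 with a naïve peak in the dark phase, 23 did so. The size of the class moved with single libraries: it was 91 genes without naïve ZT4 replicate 1, 77 without naïve ZT0 replicate 5 and 69 without CIA ZT12 replicate 2. The 5 genes next in weight after Fam120b were Per2, Smndc1, Adam19, Zfc3h1 and Wee1, with weights from 0.959 to 0.886, and all 5 peaked earlier in CIA. Wee1, a kinase that holds cells before mitosis and a known target of the clock, went from ZT16.9 to ZT14.7 (-2.18 h, SE 0.650). At the threshold of 0.6, Slc25a25 (0.623) and Dda1 (0.621) were just inside and Cgn (0.594) and Gnpnat1 (0.590) just outside.

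Most clock genes had smaller differences in peak time than the 4 genes. Per2, a repressor of the clock that is induced at the end of the day, went from ZT15.8 to ZT14.3 (-1.52 h, SE 0.406), close in time to Lonrf1 in both treatments. At ZT20 its mean was 137 CPM in naïve and 81.6 CPM in CIA mice, and at ZT0 45.5 and 19.9 CPM. Arntl, an activator, peaked at ZT23.3 in naïve and ZT23.1 in CIA mice (-0.15 h, SE 0.447). Nr1d1, a repressor, had -0.72 h (SE 0.354), and Dbp, the PAR-domain activator that binds D-boxes, had -0.19 h (SE 0.426). In the class "same" the clock genes had differences between -0.72 and 0.16 h, and all of these but that of Nr1d1 were smaller than their SE. With those in the class "change", 16 of the 18 clock genes rhythmic in both treatments peaked earlier in CIA. Among all 6674 genes rhythmic in both treatments, 40.9% did so. Of the 19 clock genes tested, 1, Cry2, was called higher in CIA over all times (log2 fold change 0.26, edgeR adjusted p = 0.0400) and 0 lower. The shares over all genes tested were 17.6% higher and 20.4% lower, and this test leaves the daily swing of the clock genes in the error.

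Within groups the 4 genes varied largely apart from each other. Group means of the 4 genes correlated with r between 0.64 and 0.91 over the 12 groups, which share a time of day. After the group means were removed, r between the 4 genes lay between -0.10 and 0.30 over the 60 mice. With Per2, measured in the same libraries, the within-group r was 0.49 for Fam120b, 0.35 for Ankrd9, 0.31 for Lonrf1 and 0.22 for Klhl2. The other clock genes examined gave both signs. For Arntl r lay between -0.17 (Lonrf1) and 0.22 (Klhl2), and for Nr1d1 between -0.32 (Klhl2) and 0.25 (Fam120b). For Dbp it lay between -0.17 (Klhl2) and 0.22 (Fam120b). With the smooth muscle score r was -0.42 for Fam120b, -0.38 for Klhl2, -0.26 for Lonrf1 and -0.03 for Ankrd9, and with the epithelium score r was 0.51 for Ankrd9, 0.11 for Klhl2, -0.21 for Lonrf1 and -0.31 for Fam120b. These are descriptions over mice whose libraries share depth and tissue piece. With the smooth muscle score in the rhythm models, the peak differences were -2.03 h for Ankrd9, -1.22 h for Klhl2, -1.73 h for Lonrf1 and -2.52 h for Fam120b.

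**Figure D5:**
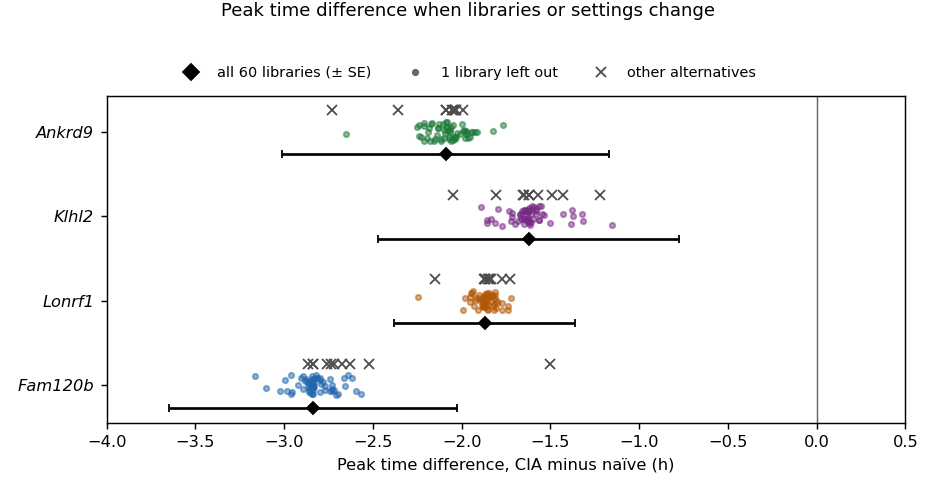
Peak time difference, CIA minus naïve (h), of each gene with all 60 libraries (diamond, bar of 1 SE), with 1 library left out (dots, 60 runs) and under other settings (crosses). Every dot and cross lies below 0, and the cross of Fam120b at -1.50 h is the curve with a 12 h term.

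The genes most like each of the 4 over the 12 group means were sought among 14840 genes whose mean reached 1 CPM. Both treatments entered these correlations, so a likeness in peak time or amplitude follows from the pick and is given as a description. For Ankrd9 they were Aak1 (r = 0.98), a kinase of clathrin-coated vesicles, Samd8 (0.98), a sphingolipid synthase, and Ahdc1 (0.96). Samd8 was itself in the class "change" (ZT17.1 to ZT15.3). For Klhl2 they were Krit1 (0.95), a protein of endothelial junctions, Zc3h11a (0.95) and Rhot1 (0.94), which moves mitochondria. Krit1, like Klhl2, had the smaller fitted amplitude in CIA (0.19 to 0.08 log2 CPM), with a peak at ZT17.3 in both treatments. Krit1 was in no class, with a weight for change of 0.236. For Lonrf1 they were Fam102a (0.98), 3110056K07Rik (0.98) and Naa60 (0.97), an N-terminal acetyltransferase in the class "change" (ZT16.3 to ZT14.6). For Fam120b they were Zfp597 (0.96), Cd302 (0.95) and Car2 (0.94), a carbonic anhydrase of the colon epithelium with a mean of 981 CPM. The fitted peak of Car2 was at ZT16.2 in naïve and ZT13.1 in CIA mice, but it was in no class, with a weight for change of 0.0888.

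None of the nearest tested genes on the chromosome was in the class "change", which says little, since the class held 0.233% of all genes tested. Tecpr2, beside Ankrd9, was in the class "same" with a peak at ZT19.3 in naïve and ZT18.3 in CIA mice, and 6030440G07Rik on the other side was arrhythmic. Msmo1, an enzyme of cholesterol synthesis beside Klhl2, came nearest to it, with a weight of 0.447, a peak at ZT20.0 in naïve and ZT16.8 in CIA mice and an amplitude of 0.25 and 0.41 log2 CPM. Tmem192, on the other side of Klhl2, peaked in the light phase at ZT6.91 (class "same"). Prag1 and Trmt9b, around Lonrf1, were in no class and arrhythmic. Around Fam120b, Dll1, a Notch ligand, and Psmb1, a proteasome subunit, were both arrhythmic, and Dll1 was lower in CIA (log2 fold change -0.31, SE 0.13, edgeR adjusted p = 0.0489).

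Relatives and partners of the 4 genes were gathered in 7 lists, and 0 of their genes were in the class "change", a count that says little, since the class held 0.233% of all genes tested. The counts called in these lists stand beside 17.6% higher and 20.4% lower over all genes tested, and where they are near those shares they show nothing about the list. In guanine and other nucleotide synthesis, around the ANKRD9 target IMPDH2, 3 of 19 genes were higher and 6 lower in CIA (median log2 fold change -0.12, against -0.02 over all genes tested). Impdh2 itself was at 85.7 ± 10.1 CPM in naïve and 69.4 ± 11.8 CPM in CIA mice (log2 fold change -0.31, SE 0.05, edgeR adjusted p = 1.24e-05). Adsl (-0.29) and Gart (-0.33), enzymes of purine synthesis, also fell. Of the core of cullin-RING ligases, 7 of 25 genes were higher and 4 lower (median 0.06), with Cul9 at 0.37, Ddb1, an adaptor of cullin 4, at -0.15 and Cand2 at -0.23.

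Among the BTB-kelch genes, the family of Klhl2, 11 of 39 were higher and 2 lower in CIA (median 0.03). Those with the smallest adjusted p were Klhl29 (log2 fold change 0.63, SE 0.09, edgeR adjusted p = 8.54e-07), Klhl32 (0.55) and Klhl11 (0.45). In the WNK pathway 3 of 13 rose and 3 fell (median -0.02), near the shares over all genes. Wnk4 fell by 0.29 on the log2 scale (SE 0.06, edgeR adjusted p = 3.20e-04), and Slc12a2, the sodium, potassium and chloride cotransporter, also fell (-0.31). The kinases of this list that WNK kinases activate went opposite ways. Oxsr1 rose by 0.12, and Stk39 had a log2 fold change of -0.23 (SE 0.07, edgeR adjusted p = 0.00615).

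Of the 5 LONRF and LON-domain genes, 1 was higher and 1 lower (median -0.05). Lonrf2 was at 3.87 ± 1.34 CPM in naïve and 5.84 ± 1.83 CPM in CIA mice (log2 fold change 0.60, edgeR adjusted p = 3.69e-04), and Lonp1, the mitochondrial LON protease, had a log2 fold change of -0.13. Lonrf3 had a rhythm with a naïve amplitude of 0.94 log2 CPM and a weight for change of 0.405. In the list of FAM120 genes and PPARγ coregulators 1 of 18 was higher and 3 lower (median -0.01): Fam120c rose by 0.15, and Rxrb, a partner of PPARγ, and Med1, a mediator subunit, each had -0.11. Of 23 PPARγ targets 4 were higher, near the share over all genes, and 2 lower (median 0.17). Those with the smallest adjusted p were Slc2a4, the insulin-responsive glucose transporter (0.54), Dgat1, an enzyme of triglyceride synthesis (0.22), and Plin4, a lipid droplet protein (0.59).

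Markers of smooth muscle and enteric neurons moved with treatment beside these lists. In addition to 13 of 13 for smooth muscle (median log2 fold change 0.66), 8 of 8 enteric neuron markers and 2 of 7 skeletal muscle markers were higher. Of 9 epithelium markers 3 were lower, of 6 fat markers 1 was lower, and of 6 B cell markers none was called. Over all genes tested, 17.6% were called higher and 20.4% lower. In lists this short, the counts for skeletal muscle, epithelium and fat markers show nothing about the lists. Of 8 interferon response genes 6 were lower in CIA, but their summed level had a median of 410 CPM in CIA and 395 CPM in naïve libraries, and the highest sum, 2448 CPM, was in naïve ZT4 replicate 5, which stood apart by these genes. The summed level of the smooth muscle markers lay between 13746.78 and 45959.16 CPM in CIA and between 7598.38 and 35191.24 CPM in naïve libraries. With the smooth muscle score in the model, 455 genes were called higher and 469 lower in CIA in place of 3179 and 3681. Its part in the values of the single list genes was not tested.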

How the data were processed

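Per the labels and methods, the authors sequenced stranded mRNA libraries of 60 mid-colon samples as paired ends, used bcl2fastq 2.17.1.14, Trimmomatic 0.36 and STAR 2.5.3 on mm10 (GRCm38), and deposited raw counts per Entrez gene from Rsubread. Of counts from 1 to 20, 74.0% were even, so both ends of a pair may have been counted. Symbols came from RefSeq (25275 genes), and unnamed genes held 0.539% of counts.

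Genes were kept by edgeR's filterByExpr over the 12 labelled groups (minimum count 10, total 15) and scaled with TMM, in R 4.3.3 with DESeq2 1.42.0, limma 3.58.1 and edgeR 4.0.16. Treatments were compared over 30 against 30 libraries with edgeR's quasi-likelihood test, with Benjamini-Hochberg adjustment over 18057 genes and a threshold of 0.05. The SE came from the F statistic. The wave shape test joined 3 terms (treatment by 12 h cosine and sine, and by a term alternating between times). Rhythms were fitted at 24 h to log2 CPM (prior count 2) with 5 models per gene: arrhythmic, rhythmic in one treatment or the other, the same in both, or different ("change"). A class needed a Schwarz weight of at least 0.6. Library totals of 25840240 to 61425974 counts set the counting error. Scripts were tested on simulated data.

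The 4 genes, the lists and the rule for named genes were chosen with earlier results of these data known. Named were the 3 genes most correlated with each over group means, the tested neighbours, up to 3 genes per list by adjusted p, Per2, Arntl, Nr1d1 and Dbp, the 5 genes next by weight, and 2 on each side of the threshold. Lonrf3 and Stk39 were added after their values were seen. A total of 1 gene named by the rule is left unreported. Alternatives were other tests, scaling, filters, halved counts, covariates, weights, curves, and libraries left out. RefSeq promoter windows matched 3 of the 4 genes.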

Additional observations from a re-analysis of the deposited data

Results flagged for a closer look

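Of the 48 groups of 5 mice examined (4 genes in 12 groups), 1 held a mouse far from the others. In naïve mice at ZT20, replicate 5 had 45.5 CPM of Ankrd9, while the other 4 had 33.8 to 36.96 CPM. Chance flags about 1 in 20 groups, or 2.4 of 48.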

How the results depend on the processing

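The values gave no sign that replicate numbers pair the mice, though this cannot exclude pairs. Over 30 pairs with the same number and time, the deviations from the group means correlated with a median r of -0.044, between -0.471 and 0.446, with 8 over 0.1. With a replicate block the Ankrd9 log2 fold change was 0.21 (edgeR adjusted p = 0.0380), 3156 genes were higher and 3559 lower, and 58 were in the class "change". It changed no call of the 4 genes.

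The Ankrd9 difference lost its call with limma-trend (0.18, adjusted p = 0.0654), with the smooth muscle score in the model (0.27, adjusted p = 0.0917) and without the 2 libraries with skeletal muscle genes (0.20, adjusted p = 0.0515), and kept it in 8 of 11 alternatives. Without 1 library at a time it lay between 0.18 and 0.25 and kept its call in 59 of 60 runs. With the smooth muscle score, 455 genes were higher and 469 lower. A 12 h harmonic in the curve brought the weight for change to 0.518 for Ankrd9 and 0.563 for Klhl2, both under 0.6, and the peak difference of Fam120b to -1.50 h. The class "change" held 698 genes with Akaike weights, 13 at a weight of at least 0.8, 7 with the 12 h harmonic and 128 without the 2 libraries with skeletal muscle genes. With 1 library left out it held 36 to 91 genes (69 without CIA ZT12 replicate 2, 77 without naïve ZT0 replicate 5, 91 without naïve ZT4 replicate 1). The stricter threshold holds fewer genes by construction. Akaike weights charge less per term, so they can only raise the weight of "change", the model with the most terms. The cause of the other changes was not tested. The weight for change of all 4 genes stayed at 0.6 or more in 60 of 60 such runs, with peak differences of -2.65 to -1.77 h for Ankrd9, -1.89 to -1.15 h for Klhl2, -2.24 to -1.72 h for Lonrf1 and -3.17 to -2.57 h for Fam120b. No called value changed sign. Among values that passed no test, with the smooth muscle score the pooled log2 fold change went from -0.07 to 0.02 for Fam120b and from -0.0046 to 0.13 for Lonrf1. With the 12 h harmonic the peak differences of the other 3 genes were -2.05 h (Ankrd9, Klhl2) and -2.15 h (Lonrf1), so Fam120b had the smallest shift. With 6 times, 4 h apart, shifts under that step rest on the fitted curve.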
